A study of Mus musculus with 2 samples.

Results

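Guanylin (Guca2a), uroguanylin (Guca2b) and the receptor that both peptides bind, guanylate cyclase C (Gucy2c), were followed through the cells of the mouse small intestine. The genes were taken by symbol, and the 3 members were each found once among the 32285 genes of the deposited tables. Values came from single-cell RNA-Seq of Tomato-positive epithelial cells, sorted from whole small intestines of mice aged 4 to 6 weeks. Both groups carried Neurog3Cre and Rosa26tdtomato, so that descendants of cells that had expressed Neurog3, the factor that commits endocrine progenitors, kept the red reporter. Besides endocrine cells, such descendants are known to include goblet, Paneth and some absorptive cells. The WT library had no further allele, whereas mice of the library labelled NFKO were also FoxO1 f/f, so that the same Cre should delete FoxO1. Each group was 1 library pooled from 4 to 5 mice, so that no difference between groups had a replicate.

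The peptides are made as prohormones and released into the gut lumen, where they act on neighbouring cells. Guanylate cyclase C sits in the apical membrane, and binding of either ligand, or of the bacterial heat-stable enterotoxin that imitates them, raises cyclic GMP inside the cell. Cyclic GMP then acts through the kinase Prkg2 and through phosphodiesterases, opening the chloride channel Cftr and holding back the sodium-proton exchanger Slc9a3, which draws salt and water into the lumen.

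The ligand genes are neighbours on chromosome 4 of GRCm38, the build that the processing notes name as mm10. Guca2a (ENSMUSG00000023247) lies at chr4:119637704-119639471 on the plus strand with 3 coding exons, and Guca2b (ENSMUSG00000032978) at chr4:119656607-119658954 on the minus strand, also with 3 coding exons. Their nearest ends are 17135 bases apart, with 0 annotated genes between them. Gucy2c (ENSMUSG00000042638) lies at chr6:136697284-136781765 on the minus strand and has 26 exons in its principal transcript. None of the 3 overlaps another annotated gene, on either strand, in GENCODE M21. The libraries count transcripts at their 3′ ends, and in both ligand genes the last exon also holds the end of the coding sequence, which encodes the active peptide.

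The last 15 codons before the stop are shown because they encode the part of each prohormone that binds the receptor. They are written 5′ to 3′ on the coding strand, with the cysteine codons in capitals.
Guca2a, chr4:119639228-119639272, plus strand: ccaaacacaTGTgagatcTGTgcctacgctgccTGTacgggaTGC
Guca2b, chr4:119656795-119656839, minus strand: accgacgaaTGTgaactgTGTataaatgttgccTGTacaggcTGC
Both stretches hold 4 cysteine codons, and these fall at the same 4 of the 15 places. The cysteines pair into the disulfide bridges of the mature peptides. Of the 45 bases, 29 are identical (64.4%).

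The 250 bases before the RefSeq start of each ligand gene (GRCm38.p6) are shown because the ligand genes were high together in several cell types and apart in others. The GENCODE start of each gene, given above, lies further upstream, so that the last bases of each window fall inside the gene by that annotation. Capitals mark exact matches, on either strand, to any of 4 short motifs that were searched.
Guca2a, chr4:119637482-119637731, plus strand: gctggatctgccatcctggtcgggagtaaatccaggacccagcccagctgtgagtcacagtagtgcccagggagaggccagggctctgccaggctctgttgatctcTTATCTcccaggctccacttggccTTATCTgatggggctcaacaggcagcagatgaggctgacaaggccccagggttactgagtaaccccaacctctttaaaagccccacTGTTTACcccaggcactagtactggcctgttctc
Guca2b, chr4:119658946-119659195, minus strand: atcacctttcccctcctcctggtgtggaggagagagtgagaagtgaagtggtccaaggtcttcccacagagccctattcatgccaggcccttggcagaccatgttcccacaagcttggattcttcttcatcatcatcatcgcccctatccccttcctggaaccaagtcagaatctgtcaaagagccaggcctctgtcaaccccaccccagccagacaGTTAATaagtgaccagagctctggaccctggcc
Guca2a held 2 matches to the GATA motif AGATAA, which is found in 9.99% of 32851 promoter windows of the same length, and 1 match to the forkhead motif GTAAACA, which is found in 3.17%. Guca2b held 1 match to the HNF1 motif GTTAAT, found in 6.43% of windows. Neither held the CDX motif TTTAT, found in 37.3%. The promoter table matched 2 of the 3 members, and Gucy2c is named only. A match gives the letters and their place; whether any factor binds there was not measured.

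The filters left 3003 cells in WT, with 77755334 UMIs, and 5292 in the library labelled NFKO, with 107195786 UMIs (unique molecular identifiers, each marking 1 captured transcript). The median was 16779 UMIs per cell in the former and 16690 in the latter. The libraries shared 6 barcodes as deposited and 4 among kept cells. Foxo1 had 906 UMIs in WT against 1339 in the other library, which gave a ratio of 1.07 (0.985 to 1.17), so that loss of the transcript was not seen and the name "library labelled NFKO" is kept throughout. The counts come from the 3′ end, so that a deletion elsewhere in the gene is not checked by them. The paper itself reports significantly lower FoxO1 expression in Tomato-positive cells that were sorted from NFKO mice. By Xist and Y-linked transcripts, WT held 1798 male-typed and 0 female-typed cells, and the library labelled NFKO held 270 and 4071. The labels give no sex, and effects of sex and of the genotype label cannot be told apart in values over all cells. Ratios between male-typed cells alone are given for each class beside those over all cells. The heat-shock gene Hspa1a was at 298 CPM in WT and 24.1 CPM in the library labelled NFKO. CPM here is UMIs of a gene per 1000000 UMIs of the cells summed. Intervals in parentheses are 95% intervals for counting error only, which leave out any spread among mice, sorts or library preparations. Those of levels and ratios also leave out the spread from cell to cell, and few cells can hold many of a gene's UMIs. With 1 library a group there is no replicate error and no test of a difference between groups. Cells of a cluster came from the same pooled library and are not replicates.

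Cells of both libraries fell into 22 clusters, 20 of which took a class name from markers, without the 3 members taking part. The marker checks held for goblet-like cells (clusters 0, 1 and 3, each with 5 of 8 markers), tuft-like cells (cluster 16, 10 of 10), enterocyte-like cells (cluster 10 with 13 of 13 markers and cluster 14 with 7), and the defensin-rich Paneth-like cluster 12 (9 of 9). Cluster 17 was Paneth-like on 4 of 9 markers only, and its leading genes were Rnase1, Retnlb, Samd5, Habp2 and Mmp7. Enterochromaffin-like cells, the serotonin-producing class, were clusters 7 and 11. By their highest hormone transcript, the remaining endocrine clusters held Gip (cluster 2), Ghrl (cluster 4), Gcg (cluster 8), Sst (cluster 18), Sct (cluster 19), Nts (cluster 20) and Cck (cluster 21).

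Guca2a was most abundant in secretory cells of the goblet and Paneth branch. In goblet-like cells it stood at 4750 CPM (4719 to 4781) in 842 WT cells and at 3467 CPM (3446 to 3487) in 1552 cells of the library labelled NFKO. Cluster 17 was higher still, at 5929 CPM in WT and 5721 CPM in the library labelled NFKO, while the defensin-rich cluster 12 held 424 and 647 CPM. Within WT, cluster 17 was thus 14 times cluster 12 (13.6 to 14.4), and within the other library 8.84 times (8.59 to 9.09). The clusters that take the Paneth-like name were therefore the highest and the lowest in Guca2a among the goblet-like and Paneth-like clusters of both libraries. Cycling cells held 1980 CPM in WT and 1454 CPM in the library labelled NFKO, and stem-like cells 844 and 837 CPM.

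Endocrine cells held little Guca2a. All enteroendocrine-like cells together stood at 57.7 CPM in WT and 62.8 CPM in the library labelled NFKO, so that the goblet-like level was 82.3 times the endocrine one in WT (76.1 to 89.2) and 55.2 times in the other library (52.7 to 57.8). Among endocrine clusters Guca2a was highest in cluster 4, which held ghrelin (Ghrl) and Neurog3 among its leading genes, at 140 CPM in WT and 142 CPM in the library labelled NFKO. Tuft-like cells had 43.6 and 81.7 CPM.

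**Figure D1:**
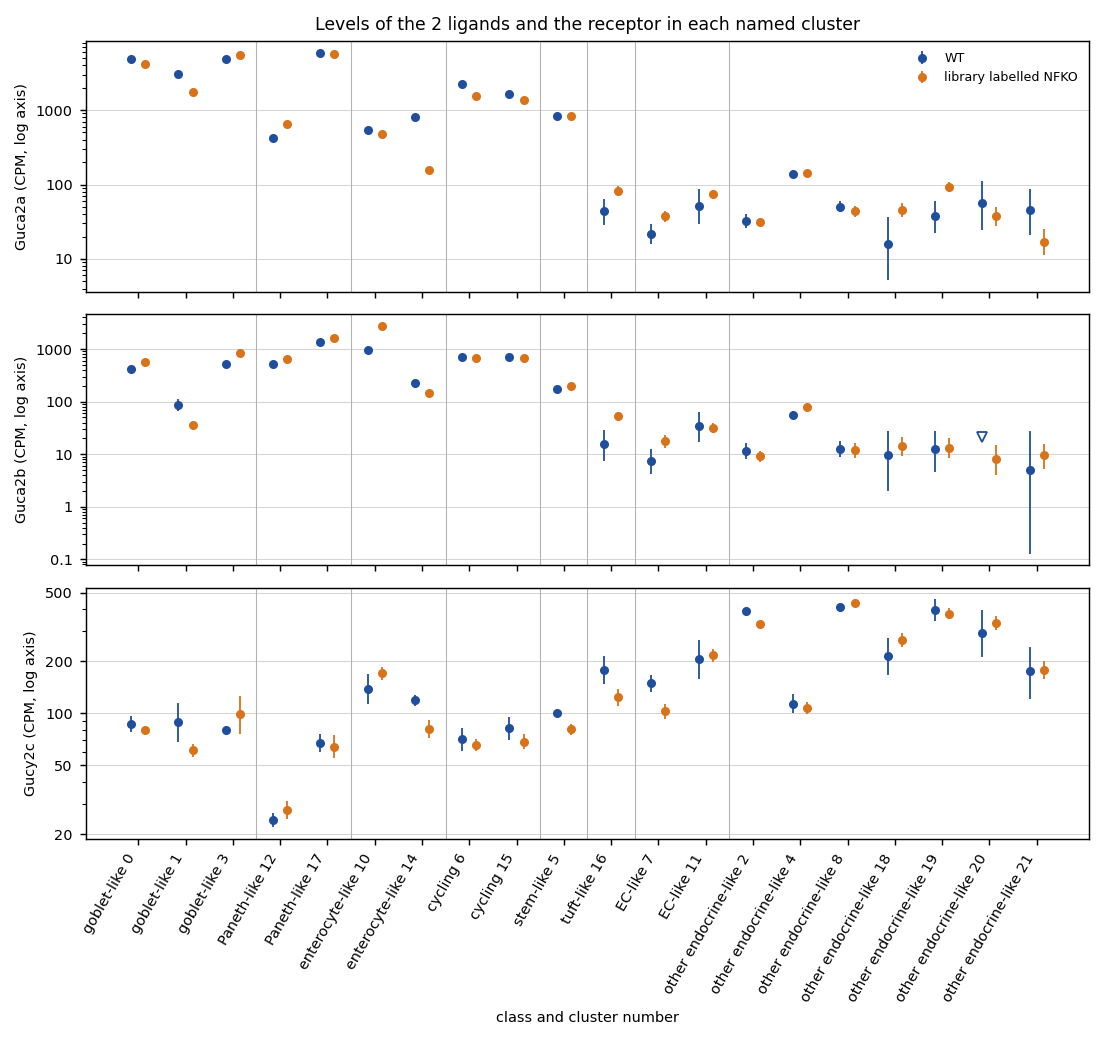
Level of Guca2a, Guca2b and Gucy2c (CPM, log axes) in each of the 20 named clusters, with WT in blue and the library labelled NFKO in orange; bars are 95% Poisson intervals, and the open triangle marks a count of 0 drawn at the limit of 3 counts. The ligands were higher on the left, in goblet-like, Paneth-like and enterocyte-like clusters, with Guca2b low in goblet-like cluster 1, and lower in tuft-like and endocrine clusters, while Gucy2c reached 436 CPM in endocrine cluster 8 and 24.2 CPM in Paneth-like cluster 12.

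Guca2b was shared between enterocyte-like, Paneth-like, cycling and goblet-like cells. In WT it was highest in Paneth-like cluster 17, at 1336 CPM (1301 to 1372), followed by enterocyte-like cluster 10 at 950 CPM (879 to 1026). In the library labelled NFKO the order was turned, with 2729 CPM (2673 to 2785) in cluster 10 and 1617 CPM (1570 to 1666) in cluster 17. Cycling cells had 709 and 673 CPM, the Paneth-like cluster 12 had 527 and 659 CPM, and goblet-like cells 482 and 420 CPM. Enterochromaffin-like cells had 10.8 and 23.6 CPM and other enteroendocrine-like cells 23.1 and 27.1 CPM. In cluster 20, led by neurotensin, WT had 0 Guca2b UMIs in 35 cells, which allows a level of up to 21.5 CPM.

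The receptor was ordered the other way. Gucy2c was highest in endocrine cluster 8, which leads with proglucagon (Gcg) and Insl5, at 413 CPM (389 to 438) in WT and 436 CPM (413 to 459) in the library labelled NFKO. Clusters 19 (398 and 378 CPM), 2 (390 and 331 CPM) and 20 (293 and 334 CPM) came next. In WT the intervals of clusters 8, 19 and 2 overlapped, so that their order was not resolved there. Over all endocrine cells other than enterochromaffin-like ones the level was 312 CPM in WT and 280 CPM in the library labelled NFKO, which was 1.98 times (1.78 to 2.22) and 1.85 times (1.73 to 1.99) the enterochromaffin-like level and 9.49 times (8.72 to 10.3) and 7.94 times (7.22 to 8.74) the Paneth-like level.

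Enterocyte-like cells, the best known site of the receptor, held 121 CPM of Gucy2c in WT and 125 CPM in the library labelled NFKO, and tuft-like cells 179 and 124 CPM. Goblet-like cells held 81.8 and 75.0 CPM, stem-like cells 101 and 81.0 CPM and cycling cells 75.8 and 66.9 CPM. The unnamed cluster 13, shallow and with Gip as its highest hormone, held 305 and 338 CPM. The lowest level was in the defensin-rich Paneth-like cluster 12, at 24.2 and 27.7 CPM. Cluster 8 held 17.1 times that level (15.2 to 19.2) in WT against 15.7 times (13.8 to 17.9) in the other library. Cells of cluster 12 were deep, with a median of 88200 UMIs against 15330 in cluster 8, and CPM does not give transcripts per cell. In WT, cluster 12 held 393 Gucy2c UMIs in 141 cells and cluster 8 held 1083 in 191. In the other library they held 289 in 137 cells and 1401 in 190. Per cell the gap was therefore smaller.

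**Figure D2:**
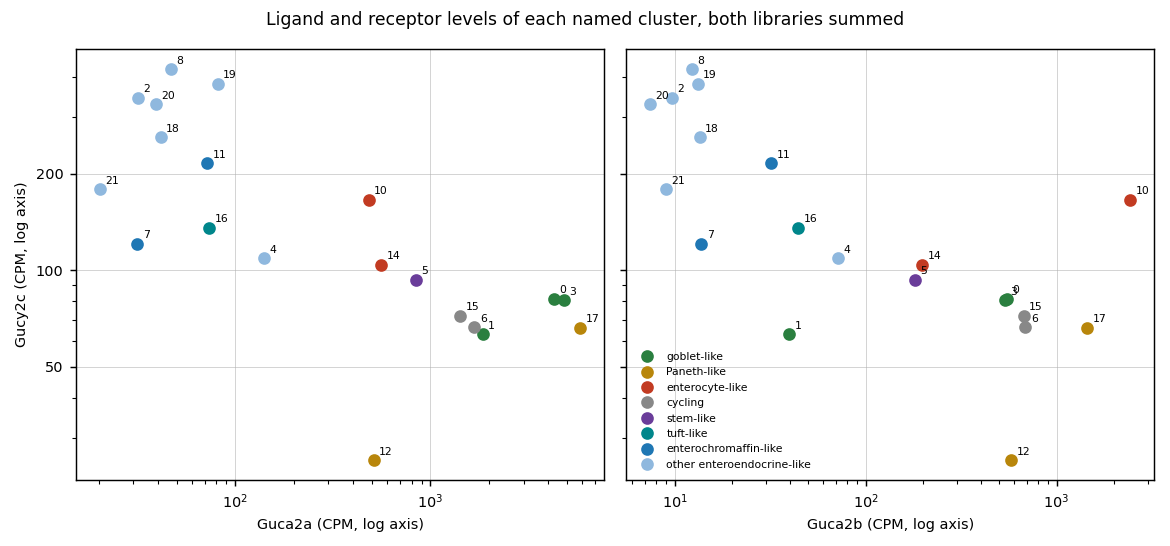
Level of Gucy2c (vertical, CPM, log axis) against Guca2a (left) and Guca2b (right, CPM, log axes) in each named cluster with both libraries summed; numbers name clusters and colours classes. Endocrine and tuft-like clusters sit on the left of both panels, joined in the Guca2b panel by goblet-like cluster 1 at 39.7 CPM. The defensin-rich Paneth-like cluster 12 is lowest on the receptor axis at 25.6 CPM.

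Over the 22 clusters, with both libraries summed and levels as log2(CPM + 1), the correlation of Guca2a with Guca2b was 0.86, that of Guca2a with Gucy2c was -0.74 and that of Guca2b with Gucy2c was -0.73. These describe 22 points that share 2 libraries and differ in depth. Enterocyte-like cluster 10 departed from that order, with the highest Guca2b level of all clusters, 2428 CPM, beside 166 CPM of Gucy2c.

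Depth can set how often a transcript is seen, so cells were also thinned to 2000 UMIs each. The 32 cells of WT and 387 cells of the other library that had fewer were set aside. At that depth 93.1% of WT goblet-like cells had a Guca2a UMI (91.2 to 94.7) and 81.1% in the library labelled NFKO (79.1 to 83.1), against 96.8% and 92.3% without thinning. Among all enteroendocrine-like cells, a class for which Guca2a is not a marker, the thinned shares were 8.65% and 10.4%, and the unthinned ones 30.1% and 44.3% at median depths of 12384 and 15466 UMIs, where goblet-like cells had 24234 and 21730. For Gucy2c the order turned: 39.5% and 37.5% of enteroendocrine-like cells had a UMI after thinning (80.4% and 84.3% before), against 17.5% and 13.6% of goblet-like cells and 5.00% and 7.35% of Paneth-like cluster 12. Without thinning, 76.2% and 64.6% of goblet-like cells and 84.4% and 67.2% of cluster 12 had a Gucy2c UMI, where a median cell of cluster 12 held 88200 UMIs. In cluster 8 the thinned Gucy2c share was 57.6% in WT against 58.4% in the library labelled NFKO.

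Within the goblet-like class, the ligands separated the clusters. Cluster 0, led by Mptx1, Hsd11b2, Agr2, Rep15 and Ccl6, held 4920 CPM of Guca2a in WT and 4166 CPM in the library labelled NFKO. Cluster 1, led by Ido1, Ly6m, Zg16, Gsta4 and Frmd3 and with the mucus-layer gene Clca1 among its 10 leading genes, held 3043 and 1760 CPM. The ratio of cluster 0 to cluster 1 was 1.62 (1.55 to 1.69) in WT against 2.37 (2.33 to 2.41) in the other library.

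For Guca2b the step between the same clusters was larger. Cluster 0 held 421 and 578 CPM against 88.1 and 36.0 CPM in cluster 1, a ratio of 4.78 (3.71 to 6.26) in WT against 16.0 (14.4 to 18) in the library labelled NFKO. Among thinned cells 42.4% and 49.3% of cluster 0 had a Guca2b UMI, against 12.4% and 6.46% of cluster 1. The unthinned shares of cluster 0 were 84.2% and 88.4%. Gucy2c did not step in the same way, with a ratio of 0.972 (0.743 to 1.29) in WT against 1.31 (1.19 to 1.45) in the other library. Cluster 1 cells were shallower, with a median of 6951 UMIs against 28776 in cluster 0; the part of depth in these levels was not tested, although the thinned shares ran the same way.

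Cluster 3, led by the stress-linked genes Edn2, Areg, Hspa1a, Lrg1 and Hspa1b, was mostly a WT cluster, with 587 WT cells and 27 of the other library. Its WT levels of Guca2a (4783 CPM) and Guca2b (521 CPM) were 0.972 times (0.957 to 0.987) and 1.24 times (1.17 to 1.30) those of cluster 0. In the other library, where the 27 cells are few, they were 1.31 times (1.27 to 1.36) and 1.43 times (1.31 to 1.56), so that Guca2b was above cluster 0 in both libraries and Guca2a only in the library labelled NFKO.

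Single goblet-like cells were widely spread. In WT the per-cell level of Guca2a had a 10th percentile of 817 CPM, a median of 4111 CPM and a 90th percentile of 7881 CPM, and in the library labelled NFKO 72.5, 1958 and 6793 CPM. The ranges overlapped, and all 3 values were lower in the library labelled NFKO. The 181 WT cells with most Guca2a UMIs, 21.5% of the class, held 50% of its Guca2a UMIs, and 13.3% of cells did so in the other library.

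In stem-like cells a small share of cells held much of the Guca2a. After thinning, 40.7% of WT stem-like cells and 37.6% of those in the other library had a Guca2a UMI. The median stem-like cell had 61.5 CPM of Guca2a in WT and 94.2 CPM in the library labelled NFKO, while the 90th percentile was 2109 and 2297 CPM, and 9.67% and 8.38% of cells held 50% of the UMIs. The ligands were found in the same stem-like cells: after thinning, 40.2% of WT cells with a Guca2a UMI also had a Guca2b UMI (31.4 to 49.4), against 5.62% of those without (2.73 to 10.1), and in the library labelled NFKO 43.3% (31.2 to 56.0) against 9.01% (4.41 to 15.9). The stem-like cluster also held 8 of 8 cycling markers.

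In goblet-like cells Guca2b was seen in 47.5% of WT cells with Guca2a (44.0 to 51.1) and in 15.5% of those without (7.35 to 27.4); the shares were 32.9% (30.3 to 35.6) and 7.39% (4.64 to 11.1) in the library labelled NFKO. Part of this followed the cluster, since cluster 1, low in both ligands, held 214 of the 284 cells without Guca2a in that library. Inside cluster 0 of the library labelled NFKO the shares were 52.7% (48.8 to 56.5) and 14.9% (7.40 to 25.7), and inside cluster 1 they were 7.18% (5.13 to 9.73) and 4.67% (2.26 to 8.43), where the intervals overlapped. In WT they were 43.9% and 12.5% in cluster 0, which had 8 cells without Guca2a, and 13.2% and 9.52% in cluster 1. The rank correlation of the thinned ligand counts over cells of the library labelled NFKO was 0.30 in the class but 0.11 in cluster 0 and 0.03 in cluster 1. Ligand and receptor showed no such pairing in the class: Gucy2c was seen in 17.4% of WT goblet-like cells with Guca2a and 19.0% of those without, and in 14% and 12% in the other library.

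Among endocrine cells, the receptor was lower where Neurog3 was seen. Cells with a Neurog3 UMI after thinning held 84.7 CPM of Gucy2c in WT (139 cells) and 83.4 CPM in the library labelled NFKO (324 cells), whereas cells without one held 315 and 289 CPM. Within cluster 4 alone the same step was 80.1 against 152 CPM in WT and 72.7 against 150 CPM in the other library, with intervals that did not overlap (64.9 to 97.9 and 130 to 177 in WT). Guca2a ran the other way over all endocrine cells, at 95.4 CPM with and 50.8 CPM without a Neurog3 UMI in WT and at 103 and 54.6 CPM in the library labelled NFKO. Within cluster 4, however, Guca2a was at 123 CPM with and 159 CPM without in WT and at 140 and 144 CPM in the other library, so that the step over all endocrine cells was not seen inside that cluster.

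The enterochromaffin-like clusters differed in the receptor. Cluster 11, led by Cartpt and holding Tph1 among its leading genes, had 208 CPM of Gucy2c in WT and 217 CPM in the library labelled NFKO, while the Tac1-led cluster 7 had 150 and 103 CPM. The ratio of cluster 11 to cluster 7 was 1.39 (1.03 to 1.84) in WT, where cluster 11 had 32 cells, and 2.10 (1.83 to 2.42) in the library labelled NFKO, where it had 266.

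Ligand transcripts in endocrine and tuft-like cells were set beside the 8 goblet markers (Muc2, Tff3, Clca1, Fcgbp, Zg16, Agr2, Spink4 and Spdef). In enterochromaffin-like cells Guca2a stood at 0.539% of the goblet-like level in WT and at 1.53% in the library labelled NFKO, inside the range of those markers, which was 0.265% to 1.21% in WT against 1.22% to 3.23% in the other library. In other enteroendocrine-like cells it was at 1.39% and 1.88%, again inside their range of 0.502% to 4.98% and 0.855% to 5.37%. In tuft-like cells it was at 0.918% and 2.36%, also inside the marker range of 0.470% to 12.3% in WT and of 0.870% to 14.9% in the other library. The markers spread widely and set no common background share, so that lying inside their range does not decide where the transcripts came from. The part of background RNA of goblet-like cells in Guca2a of these 3 classes was not tested. Cluster 4, at 140 and 142 CPM, lay above cluster 7, at 21.8 and 37.4 CPM, by more than counting error, so that endocrine clusters did not share 1 low level. Guca2b in enterochromaffin-like cells, at 2.25% and 5.63% of its goblet-like level, lay above all 8 markers in both libraries; Guca2b is also abundant in enterocyte-like and Paneth-like cells, and the part of RNA from those cells was not tested. In other enteroendocrine-like cells Guca2b was at 4.79% in WT, under the highest marker, and at 6.45% in the library labelled NFKO, above all 8. In tuft-like cells it was at 3.23% and 12.5%, inside the marker range of both libraries.

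**Figure D3:**
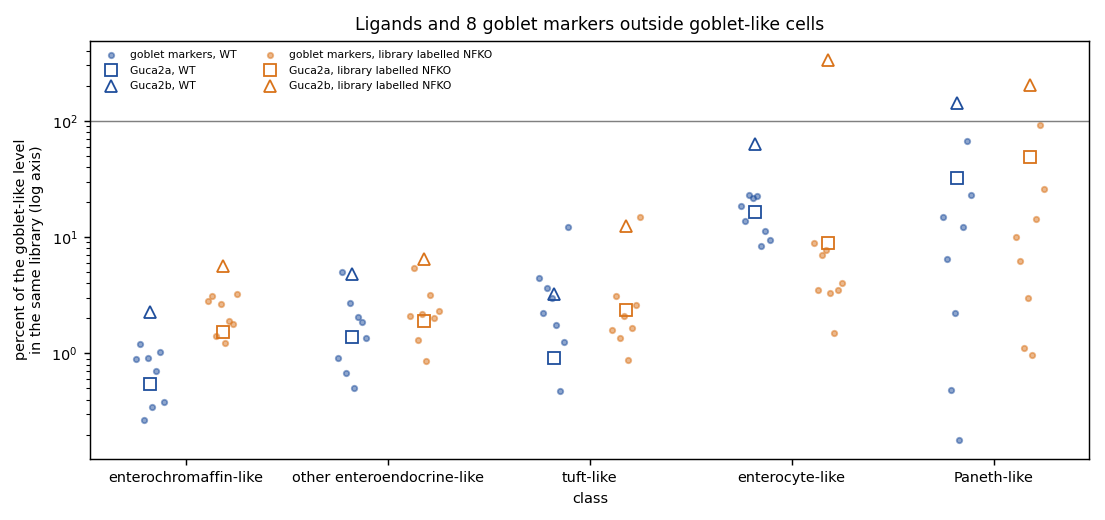
Levels outside goblet-like cells as a percentage of the goblet-like level in the same library (log axis, by class), with 8 goblet markers as dots, Guca2a as open squares and Guca2b as open triangles; blue is WT, orange the library labelled NFKO and the line marks 100%. Guca2a lies among the goblet markers in both endocrine classes, and Guca2b passes the goblet-like level in Paneth-like cells of both libraries and, at 335%, in enterocyte-like cells of the library labelled NFKO.

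The libraries were then compared within each class, as the ratio of the library labelled NFKO over WT. In goblet-like cells Guca2a was lower in the library labelled NFKO, at 0.730 (0.723 to 0.736). The ratio was 0.870 (0.847 to 0.894) for Guca2b and 0.916 (0.859 to 0.978) for Gucy2c. At least 1.5-fold either way was reached by 0 of the 3 members, where 8.28% of the 2378 genes with at least 50 CPM in a library and 100 UMIs over both reached it.

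The goblet-like values rested on different clusters in the libraries, since cluster 3 held 587 of the 842 WT cells and clusters 0 and 1 held 735 and 790 of the 1552 others. Inside the clusters the Guca2a ratio was 0.847 (0.834 to 0.859) in cluster 0, 0.578 (0.553 to 0.605) in cluster 1 and 1.14 (1.10 to 1.18) in cluster 3. Guca2b had ratios of 1.37 (1.31 to 1.44), 0.409 (0.311 to 0.545) and 1.58 (1.45 to 1.73), so that it was higher in 2 clusters and lower in the shallow cluster 1. In cluster 1 the goblet marker Zg16 was at 101446 CPM in WT and 213498 CPM in the library labelled NFKO. So large a share of the UMIs lowers the CPM of other genes, and its part in the cluster 1 ratios was not tested. Without cluster 3 the goblet-like Guca2b ratio was 1.10 (1.04 to 1.15), on the other side of 1, while that of Guca2a was 0.735. With the 521 WT cells and 78 others typed as male, the Guca2a ratio was 0.888 (0.868 to 0.908), that of Guca2b 0.997 (0.929 to 1.07) and that of Gucy2c 1.14 (0.966 to 1.33).

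In enterocyte-like cells the ligands went opposite ways. Guca2a was at 778 CPM in WT and 311 CPM in the library labelled NFKO, which gave a ratio of 0.399 (0.379 to 0.420), and Guca2b at 306 and 1407 CPM, a ratio of 4.60 (4.38 to 4.83). Gucy2c was at 121 and 125 CPM, a ratio of 1.03 (0.937 to 1.14). Thus 2 of the 3 members were at least 1.5-fold apart, in a class where 18.9% of 2863 genes were. For Guca2a this depended on how cells were weighted and classed: its ratio was 0.743 with equal weight for each cell and 0.765 with each cell classed by its own markers, both less than 1.5-fold apart. In male-typed cells, 115 of WT and 15 of the other library, the ratios were 0.374 (0.322 to 0.433) for Guca2a, 7.46 (6.90 to 8.07) for Guca2b and 1.12 (0.880 to 1.42) for Gucy2c.

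Guca2b in enterocyte-like cells followed the cluster, and clusters 10 and 14 held 126 and 130 of the WT cells but 237 and 111 of the others. Cluster 10 had Apoa4, Apoa1, Mme and Lct among its leading genes. Its Guca2b level was 950 CPM in WT and 2729 CPM in the library labelled NFKO, which gave a ratio of 2.87 (2.65 to 3.11). In male-typed cells of cluster 10, only 20 of WT and 9 of the other library, the ratio was 2.89 (2.49 to 3.36). Over all cells of cluster 10, the per-cell median was 436 CPM in WT and 1655 CPM in the other library. A UMI was seen in 54.8% (45.7 to 63.8) and 88.3% (83.1 to 92.4) of thinned cells, against 72.2% and 89.9% unthinned. Cluster 14, which leads with Apol10a and Car4, had 229 and 149 CPM, a ratio of 0.654 (0.590 to 0.724). Guca2b was therefore higher in the library labelled NFKO in 1 of the 2 enterocyte-like clusters and lower in the other. The class ratio of 4.60 lay above the ratios of both clusters. Cluster 10 gave 10.7% of the UMIs of the class in WT and 48.8% in the other library. Within cluster 10, the villus-tip gene Apoa4 was at 869 CPM in WT and 3303 CPM in the library labelled NFKO. Genes that mark position along the gut were mixed. Of the proximal genes, Lct was at 126 and 375 CPM and Pdx1 was also higher. Gata4, at 47.9 and 40.1 CPM, and Onecut2 were lower. Of the distal genes, Fabp6 was at 12884 and 6906 CPM and Osr2 was also lower. Slc10a2 was near equal, at 161 and 163 CPM, and Hoxb9 was higher. The part of position along the villus or the gut in the Guca2b ratio was not tested.

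Much of the Guca2a in enterocyte-like cells was held by few cells. Of its UMIs 50% came from 12 of 256 WT cells and from 16 of 348 cells of the library labelled NFKO. In cluster 10 the ratio was 0.879 (0.784 to 0.987), and in cluster 14 it was 0.196 (0.179 to 0.213), where 10 of 130 WT cells and 3 of 111 others held 50%. All 8 goblet markers were also lower in enterocyte-like cells of the library labelled NFKO, none at 0, with a summed level of 21498 CPM in WT and 8981 CPM in that library, a ratio of 0.418. Set against its goblet-like level, Guca2a was at 16.4% in WT, close to the median of 16.0% for the 8 markers (8.44% to 23.1%), and at 8.96% in the library labelled NFKO, just above all 8 (from 1.5% to 8.87%). The unnamed cluster 9 was led by Igkc, Ighg2b, Ccl5, Gzma and Jchain, of which Ccl5 and Gzma were on the list of immune markers. With a median of 1795 UMIs a cell, cluster 9 also held 470 and 1313 CPM of Guca2a and 142 and 362 CPM of Guca2b. The part of goblet-cell RNA in the Guca2a level and ratio was not tested. Among male-typed cells of cluster 14 the ratio was 0.0564 (0.0300 to 0.0965), on 13 UMIs in the library labelled NFKO.

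Position lists gave a further description of the same cells. Enterocyte-like cells with a UMI of a distal gene only (Fabp6, Slc10a2, Osr2 or Hoxb9) held 1249 CPM of Guca2a in 80 WT cells and 896 CPM in 41 cells of the library labelled NFKO, and those with a proximal gene only (Gata4, Pdx1, Onecut2 or Lct) 381 CPM in 55 and 143 CPM in 126 cells. Distal-only cells were therefore higher in Guca2a than proximal-only cells in both libraries. Goblet-like cells ran the same way, with 5264 against 4128 CPM in WT and 4875 against 2555 CPM in the library labelled NFKO. Cells with genes of both lists or of neither were not in these values, and deeper cells hold both more often. The values were not split by cluster.

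In enterochromaffin-like cells Guca2a was at 25.6 CPM in WT and 52.9 CPM in the library labelled NFKO, which gave a ratio of 2.07 (1.56 to 2.78) that rested on 59 and 307 UMIs. Guca2b was at 10.8 and 23.6 CPM, a ratio of 2.18 (1.42 to 3.48), and Gucy2c at 157 and 151 CPM, a ratio of 0.959 (0.848 to 1.09). The class was mostly cluster 7 in WT, with 171 of 203 cells, while cluster 11 held 266 of the 514 others. Inside cluster 7 the ratios were 1.71 (1.21 to 2.48) for Guca2a, 2.37 (1.33 to 4.51) for Guca2b and 0.685 (0.585 to 0.802) for Gucy2c, and inside cluster 11 they were 1.42 (0.840 to 2.59), 0.914 (0.471 to 1.98) and 1.04 (0.795 to 1.38). The near-equal receptor level of the class thus held a lower level in cluster 7 of the library labelled NFKO. Of the 2 members that passed the count minimum, 1 was at least 1.5-fold apart, beside 10.9% of 3816 genes. All 8 goblet markers were higher in enterochromaffin-like cells of the library labelled NFKO, none at 0, with a summed level of 1300 CPM in WT and 4674 CPM in that library, a ratio of 3.59; their part in the ligand ratios was not tested. With doublets kept, the Guca2a ratio was 0.40, on 909 and 911 UMIs in 210 and 543 cells, which is on the other side of 1, and that of Guca2b was 1.07 (0.830 to 1.40). In 104 and 30 male-typed cells the ratios were 2.42 (1.33 to 4.31) for Guca2a, 1.34 (0.433 to 3.56) for Guca2b and 1.30 (0.976 to 1.73) for Gucy2c. The receptor in cluster 7 went to the other side of 1 there, at 1.16 (0.714 to 1.80), with 10 cells of the library labelled NFKO.

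In other enteroendocrine-like cells the Guca2a ratio was 0.985 (0.894 to 1.09), that of Guca2b 1.17 (0.998 to 1.38) and that of Gucy2c 0.896 (0.857 to 0.937). Of the 2 members that passed the minimum 0 were 1.5-fold apart, beside 6.50% of 3524 genes. By cluster, Gucy2c ranged from a ratio of 0.850 (0.790 to 0.914) in cluster 2 to 1.24 (0.962 to 1.63) in cluster 18, so that no cluster of this class reached 1.5-fold for the receptor over all cells. Guca2a was less even, with ratios of 2.90 (1.19 to 9.19) in cluster 18, 2.43 (1.49 to 4.21) in cluster 19 and 0.379 (0.173 to 0.916) in cluster 21, which rested on 5, 18 and 9 WT UMIs. In 432 and 76 male-typed cells of the class the ratios were 1.51 (1.24 to 1.82) for Guca2a, 1.06 (0.733 to 1.51) for Guca2b and 0.842 (0.751 to 0.943) for Gucy2c, and in cluster 8, with 7 such cells in the library labelled NFKO, Gucy2c was at 1.58 (1.22 to 2.01). The goblet markers had a summed ratio of 1.57 in the class, with 7 of 8 higher and none at 0, and their part was not tested.

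In Paneth-like cells the ratios were 1.10 (1.08 to 1.12) for Guca2a, 1.24 (1.21 to 1.27) for Guca2b and 1.07 (0.95 to 1.21) for Gucy2c, with 0 of the 2 members that passed the minimum 1.5-fold apart beside 8.91% of 898 genes. Inside the Paneth-like clusters, Guca2a had a ratio of 1.53 (1.48 to 1.58) in cluster 12 and 0.965 (0.946 to 0.985) in cluster 17. All 8 goblet markers were higher in Paneth-like cells of the library labelled NFKO. Their summed level was 30806 CPM in WT and 34884 CPM in that library, a ratio of 1.13. In cluster 12, Zg16 was at 34.7 CPM in WT and 808 CPM in that library, and Spink4 at 14517 and 17610 CPM. The part of these markers in the ligand ratios was not tested. Male-typed Paneth-like cells, of which the library labelled NFKO had only 5, gave 1.73 (1.60 to 1.87) for Guca2a, 1.52 (1.33 to 1.72) for Guca2b and 1.32 (0.655 to 2.38) for Gucy2c.

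In tuft-like cells Guca2a had a ratio of 1.87 (1.26 to 2.90) on 28 and 187 UMIs, Guca2b 3.37 (1.77 to 7.20) on 10 and 120 UMIs and Gucy2c 0.690 (0.554 to 0.865) on 115 and 283 UMIs. There 2 of 3 members were at least 1.5-fold apart, in a class where 39.6% of 3414 genes were. In the library labelled NFKO, 4 of 138 tuft-like cells held 50% of the Guca2a UMIs and 3 held 50% of the Guca2b UMIs. Median depth of tuft-like cells was 6311 UMIs in WT and 16858 UMIs in the library labelled NFKO, and the part of depth was not tested. Of the 8 goblet markers 6 were higher in tuft-like cells of that library, none at 0, with a summed level of 2650 CPM in WT and 4290 CPM there, a ratio of 1.62. Their part in the ligand ratios was not tested either. In 41 and 9 male-typed cells the ratios were 4.12 (2.01 to 8.80) for Guca2a, 9.56 (4.11 to 25.8) for Guca2b and 0.548 (0.289 to 0.977) for Gucy2c.

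**Figure D4:**
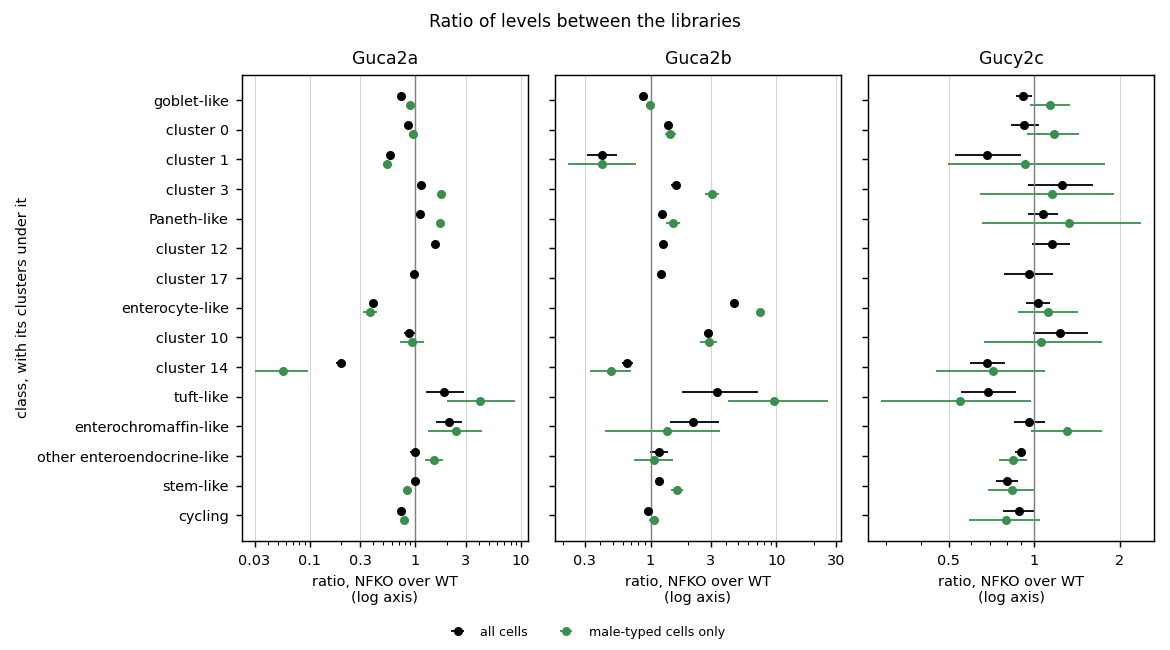
Ratio of each member's level, library labelled NFKO over WT (log axes), by class with the clusters of the goblet-like, Paneth-like and enterocyte-like classes under them; black is all kept cells, green male-typed cells only where each library had at least 5, and bars are 95% counting intervals. The Guca2b ratio of enterocyte-like cells, 4.60, lies above those of both its clusters, at 2.87 in cluster 10 and 0.654 in cluster 14. In male-typed cells the class ratio is 7.46.

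The rest of the pathway was read from a list of 32 genes of receptor cyclases, cyclic GMP effectors, transporters and regulators, which includes Gucy2c. Enterocyte-like cells, with both libraries summed, held the salt-handling genes, with Slc26a6, an anion exchanger, at 206 CPM and Slc9a3 at 116 CPM, the chloride-bicarbonate exchanger Slc26a3 at 98.6 CPM, the kinase Prkg2 at 72.6 CPM and Cftr at 68.3 CPM. In goblet-like cells the same genes were at 2.38, 0.625, 0.423, 1.01 and 1.69 CPM, in that order. Endocrine cells outside the enterochromaffin-like class, where Gucy2c was highest at 288 CPM, held 28.7 CPM of Prkg2, 1.09 CPM of Cftr and 1.90 CPM of Slc9a3. Cftr was also at 75.2 CPM in stem-like cells.

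The basolateral chloride importer Slc12a2 was highest in stem-like (445 CPM) and cycling cells (356 CPM) and stood at 216 CPM in goblet-like cells. Among the phosphodiesterases, the cyclic GMP-stimulated Pde2a was at 137 CPM in tuft-like and 51.1 CPM in goblet-like cells. The cyclic GMP-specific Pde5a was at 49.8 CPM in enterocyte-like and 42.9 CPM in stem-like cells. The intestinal regulators Cdx1 and Cdx2, homeobox factors, stood at 141 and 59.6 CPM in goblet-like and at 89.1 and 120 CPM in enterocyte-like cells, and Hnf4a, a nuclear receptor, at 99.9 and 181 CPM.

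**Figure D5:**
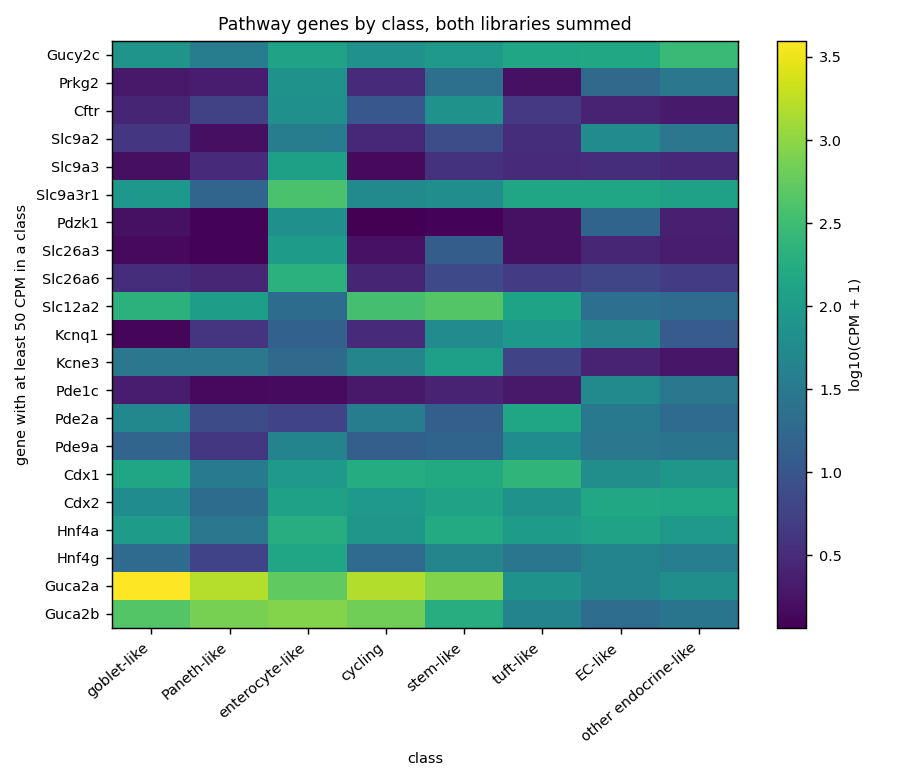
Level of the listed pathway genes that reached 50 CPM in a class, and of both ligands, as log10(CPM + 1) by class with both libraries summed. Slc26a6, Slc9a3, Slc26a3, Prkg2 and Pdzk1 are brightest in enterocyte-like cells, whereas Gucy2c is brightest in the other endocrine-like column at 288 CPM.

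Between the libraries, 7 of the 32 listed genes passed the count minimum in goblet-like cells. Of these 1 was higher by 1.5-fold or more in the library labelled NFKO and 0 were lower, where 4.37% of all 2378 genes were higher and 3.91% lower, and the median log2 ratio was 0.13 against -0.05 over all genes. The gene was Slc9a3r1, the scaffold protein NHERF1 of the apical membrane, at 56.8 CPM in WT and 108 CPM in the library labelled NFKO. By cluster its ratio was 1.26 (1.09 to 1.45) in cluster 0, 1.77 (1.42 to 2.24) in cluster 1 and 0.917 (0.623 to 1.31) in cluster 3, so that the mark was reached in 1 of the 3.

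In enterocyte-like cells 13 passed, 4 were higher and 0 lower, where 13.2% of 2863 genes were higher and 5.69% lower, with a median of 0.07 against 0.04 over all genes. Pdzk1, a further scaffold, was at 10.1 CPM in WT and 119 CPM in the other library, which gave a ratio of 11.8 (9.18 to 15.5). Slc9a3r1 was at 204 and 556 CPM, Slc26a6 at 146 and 262 CPM and Prkg2 at 53.3 and 90.4 CPM. Cftr was at 82.2 and 55.4 CPM and Slc9a3 at 125 and 109 CPM, both under the 1.5-fold mark.

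These class values pooled different cells, since cluster 10 gave 10.7% of the UMIs of the enterocyte-like class in WT but 48.8% in the other library. Inside cluster 10 the ratios were 2.74 (2.11 to 3.62) for Pdzk1, 1.69 (1.52 to 1.89) for Slc9a3r1, 1.07 (0.93 to 1.23) for Slc26a6 and 1.29 (1.01 to 1.65) for Prkg2. Inside cluster 14 they were 2.82 (0.718 to 13.2) for Pdzk1, on 4 and 7 UMIs, then 1.2 (1.09 to 1.33) for Slc9a3r1, 1.21 (1.07 to 1.35) for Slc26a6 and 0.782 (0.628 to 0.970) for Prkg2. Slc26a6 and Prkg2 thus reached the mark in neither cluster. Slc9a3, near equal over the class, had ratios of 0.571 (0.480 to 0.681) in cluster 10 and 0.657 (0.565 to 0.761) in cluster 14 and was therefore lower by over 1.5-fold in both. Cftr had 0.714 (0.497 to 1.05) and 0.817 (0.698 to 0.953).

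In enterochromaffin-like cells 7 passed, 2 were higher and 0 lower, where 7.68% of 3816 genes were higher and 3.22% lower, with a median of 0.52 against 0.07. They were Slc9a3r1 and the exchanger Slc9a2 (named after its values were seen, at 25.6 and 69.8 CPM). Neither reached 1.5-fold inside a cluster, with 1.31 and 1.17 for Slc9a3r1 and 1.23 and 1.48 for Slc9a2 in clusters 7 and 11. In the remaining classes 0 listed genes were 1.5-fold apart. Other enteroendocrine-like cells had 5 that passed, beside 2.36% of genes higher and 4.14% lower, and a median of -0.05 against -0.03. Paneth-like cells had 1 that passed, beside 5.12% higher and 3.79% lower, at -0.20 against a median of 0.17. Tuft-like cells had 9, beside 24.5% higher and 15% lower, and a median of -0.11 against 0.15.

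The genes of most like pattern were taken for each member as the 5 with the highest Pearson correlation over the 22 clusters among 6229 genes. For Guca2a they were Rep15, Ccl6, Tpsg1, Spink4 and Lrrc26 (0.97 to 0.95), all highest in cluster 0, 1 or 17. For Guca2b they were Fbln1, Cldn15, Aqp1, Reg3g and Guca2a itself (0.89 to 0.86), and for Gucy2c Lrba, Kidins220, Abcb10, Ezh1 and Stxbp5 (0.93 to 0.91). Likeness to Guca2b was lower throughout, with its highest companion at 0.89 where that of Guca2a was at 0.97.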

How the data were processed

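The authors deposited 1 filtered table of whole-number UMI counts per library, with no normalization, from Tomato-positive cells of small intestines without pancreas. The processing notes name Cell Ranger 5.0.1 and mm10. No per-sample column was left unused (0). WT had 5051 barcodes and the library labelled NFKO 7540. A cell needed 500 genes and 1000 UMIs, with mitochondrial UMIs at or under 25%; 38.1% and 25.3% of barcodes failed, and the highest simulated-doublet scores were then removed at 0.8% per 1000 barcodes (126 and 340 cells). Cells were clustered together in Seurat 5.3.0 (R 4.3.3; 2000 variable genes, 30 principal components, 20 neighbours, resolution 0.8) without integration. The 3 members and 10 other genes (Foxo1, insulin, amylin and sex-linked transcripts), 13 in all, were left out of the clustering.

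A cluster took a class name from at least 3 markers that were 2-fold over other cells and seen in 10% of its cells. Enterochromaffin-like clusters needed 4 of 7 markers with Tph1 among them. This rule was set after the ligand ratios had been seen and was the third of 3 run; the earlier ones also took clusters led by Ppy or Cck. Clusters 9 and 13 stayed unnamed. Levels are summed UMIs as CPM, with exact Poisson, Clopper-Pearson and conditional binomial 95% intervals (scipy 1.17.1). A count of 0 allowed 3 counts. Genes counted as apart between libraries had at least 50 CPM in 1 library, 100 UMIs over both and a 1.5-fold ratio. Companion genes had 50 CPM in a cluster. The named genes were the members, listed pathway genes past that minimum in goblet-like or enterocyte-like cells, the 5 companions of each member and the 5 leading genes of each goblet-like cluster. Ratio intervals were checked only on simulated counts drawn independently of each other. That setting leaves out UMIs that gather in few cells, so it cannot judge the intervals for such genes. Gene positions came from GENCODE M21 and promoters from RefSeq. The members and lists were chosen with earlier results of these data known.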

Additional observations from a re-analysis of the deposited data

Results flagged for a closer look

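Guca2a went opposite ways between the libraries in different classes. Its ratio of the library labelled NFKO over WT was 2.07 in enterochromaffin-like cells and 0.399 in enterocyte-like cells. Neither class had a replicate, and the difference between the classes was not tested. With doublets kept the ratios were 0.40 and 0.562, both under 1, so that the opposite directions were not seen then. The summed goblet markers went the same ways, with ratios of 3.59 and 0.418, and their part was not tested.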

How the results depend on the processing

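The 9 ratios of the members in goblet-like, enterochromaffin-like and enterocyte-like cells were recomputed under 84 alternatives, of which 56 stayed within the counting interval of the reported value, 24 left it on the same side of 1 and 4 left it for the other side. With median-of-ratios size factors, the goblet-like Guca2a ratio was 0.746. With each cell given the same weight, goblet-like Guca2a was 0.644 and Guca2b 0.695, and enterocyte-like Guca2a was 0.743, Guca2b 3.08 and Gucy2c 1.19. Without doublet removal, enterochromaffin-like Guca2a crossed 1, at 0.40, with Guca2b at 1.07, and enterocyte-like Guca2a was 0.562. With a stricter cell filter, goblet-like Guca2a was 0.722, and enterocyte-like Guca2a and Guca2b were 0.319 and 5.16. At clustering resolution 0.4 goblet-like Guca2a was 0.697. With each cell classed by its own markers it was 0.687, and enterocyte-like Guca2a and Guca2b were 0.765 and 3.96. In male-typed cells, goblet-like Guca2a was 0.888, Guca2b 0.997 and Gucy2c crossed 1 at 1.14. There, enterochromaffin-like Guca2b was 1.34 and Gucy2c crossed 1 at 1.30, on 104 and 30 cells, and enterocyte-like Guca2a was 0.374 and Guca2b 7.46, on 115 and 15 cells. The cause was not tested for any of these. Chosen after seeing the data, leaving out cluster 3 put goblet-like Guca2b across 1 at 1.10 and Gucy2c at 0.852, and leaving out cluster 14 gave 0.879, 2.87 and 1.23 for enterocyte-like Guca2a, Guca2b and Gucy2c, since cluster 10 alone was left. Under the earlier enterochromaffin rules Guca2a was 1.89 and 2.25, Guca2b 1.79 and 1.90 and Gucy2c 1.02 and 1.03. Among genes with 1 UMI in each library, 27.6% were 1.5-fold apart in goblet-like cells, against 8.28% past the minimum. No paired analysis was possible because each group was 1 library. Depth limited the enterochromaffin-like and tuft-like ligand values, which rested on as few as 25 and 10 UMIs in WT.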
